A study of Mus musculus with 59 samples.

Results

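Lithium was set against fluoxetine in the prefrontal cortex of male mice heterozygous for Naa15, over all genes with a normalised count of 10 or more in 4 libraries or more. The members are 10 of the 59 libraries of the series, chosen by their labels and not by any measured value: 5 HT lithium males and 5 HT fluoxetine males. HT is the heterozygous Naa15 genotype on the C57BL/6J strain, and every animal of both groups carried it. Mothers passed the drugs on in milk between postnatal days 3 and 24, and the cortex was taken at postnatal day 25. The labels give no dose, litter or batch, and no description of the Naa15 allele, so the p-values cover only the spread among these samples, which may be technical in part. Also used were WT males given lithium or fluoxetine (5 libraries each), HT females given lithium or fluoxetine (5 each), and 4 HT vehicle males. WT females given lithium or fluoxetine (5 each) are cited for their library scores only.

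Naa15 encodes the subunit that anchors NatA, the enzyme complex that acetylates the first residue of a large share of newly made proteins, to the ribosome. Lithium, a mood stabiliser, inhibits glycogen synthase kinase 3 and inositol monophosphatases directly, and so acts on Wnt/beta-catenin signalling and on the recycling of inositol. Fluoxetine blocks the reuptake of serotonin by its transporter. In the prefrontal cortex both drugs are known for effects on mood circuits, and immediate early genes, whose transcription follows synaptic activity within minutes, are the usual read-out of recent neuronal firing.

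Poly(A) RNA was sequenced with a stranded kit, and the deposited values are read counts that the authors divided by 1 size factor per library (normalised counts here). They stood for 28.1 to 31.1 M reads in HT lithium males and 28.4 to 32.6 M in HT fluoxetine males. Of 18088 genes in the table, 17891 were tested with limma on log2 of the normalised count plus 1. Fold changes are on that log2 scale, lithium over fluoxetine, with the SE of the fit. A gene rose or fell only where its two-sided p, adjusted over all 17891 genes by the Benjamini-Hochberg method, was under 0.05. All 10 libraries carried the male pattern of Xist and of the Y-linked genes Ddx3y and Uty.

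The 10 libraries stood apart by group before any gene was named. On the first principal component of all 59 libraries (14.4% of the variance) the HT lithium males lay between -31.6 and -16.8, and the HT fluoxetine males between 3.998 and 21.3. All 20 lithium libraries of the series and the 5 HT fluoxetine females scored -31.6 to -14.9, while the remaining 34 scored -2.74 to 27.6. The share of reads on the mitochondrial chromosome was 6.76 to 9.16% in HT lithium males and 5.66 to 6.38% in HT fluoxetine males. The slope of a library's log2 values on GC content (per 10 points of GC) was -0.215 to -0.0674 in HT lithium males and -0.00350 to 0.159 in HT fluoxetine males. For each of these 2 measures the groups did not overlap (exact permutation test, two-sided p = 0.00794, the smallest that 5 against 5 allows; 0.0227 adjusted over 20 library measures). Genes of low GC content were therefore higher and genes of high GC content lower in HT lithium males, and the part that this trend has in the results was not tested beyond the alternatives given beside them. Within the 10 HT male libraries, a batch shared by the 25 libraries and the treatment cannot be told apart. The 25 hold both drugs, and among them HT lithium females against HT fluoxetine females gave 10 calls by limma (0.0559%). The part of a batch was not tested.

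**Figure D1:**
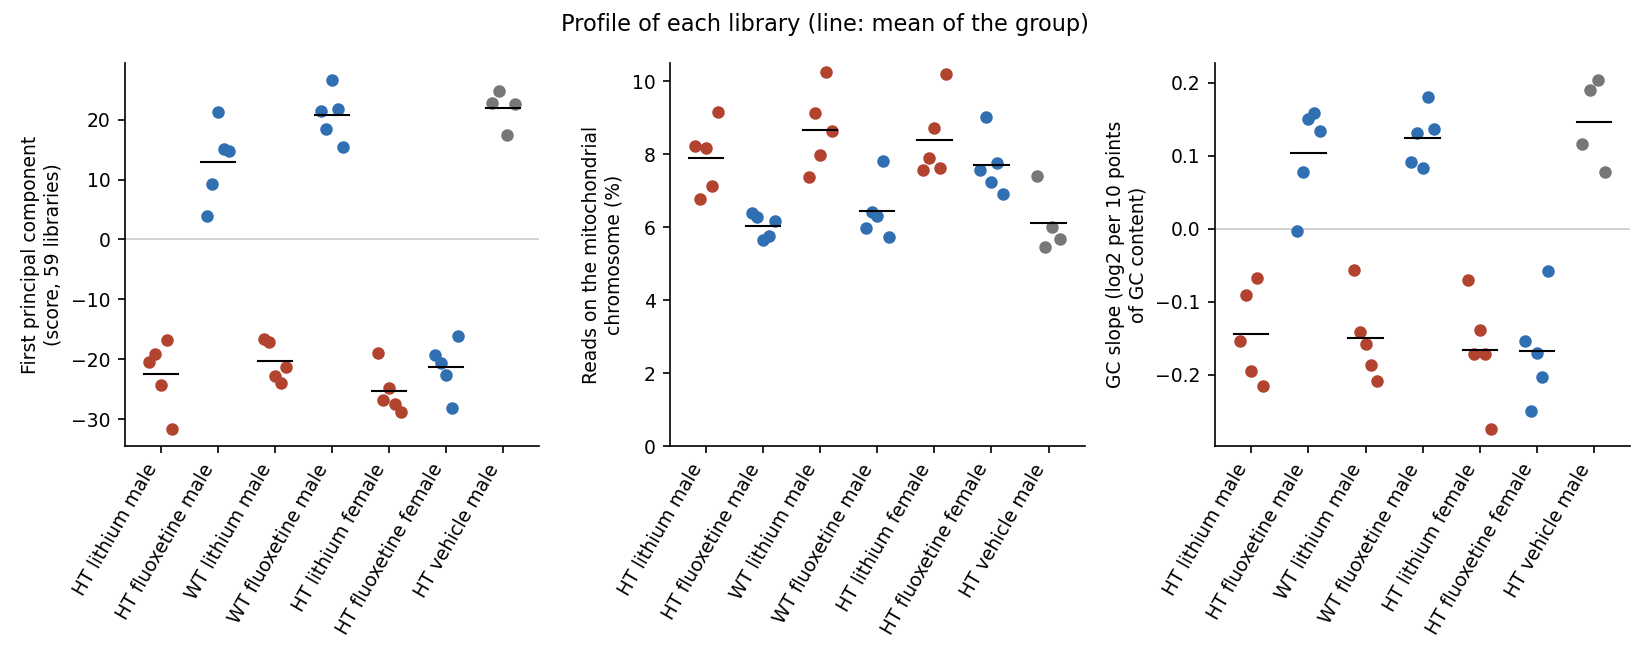
First principal component score, percent of reads on the mitochondrial chromosome and GC slope (log2 per 10 points of GC content) of each library in 7 groups, with the group mean as a line. HT lithium males lie apart from HT fluoxetine males on all 3 measures (6.76 to 9.16% against 5.66 to 6.38% mitochondrial reads), and HT fluoxetine females lie with the lithium groups.

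Naa15 itself did not pass the test. Its normalised counts were 1821, 1629, 1729, 1587 and 1796 in HT lithium males, against 1855, 1614, 1523, 1541 and 1581 in HT fluoxetine males, and the groups overlapped. The log2 fold change was 0.08 ± 0.06 (adjusted p = 0.312). The gene lies on chromosome 3, 51415148 to 51476507, plus strand (GRCm38, GENCODE M21). Of 13 tested genes of NatA and the other N-terminal acetyltransferases, 2 rose and 1 fell, against 14.7% and 16.8% of all tested genes.

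Across the transcriptome 5636 of 17891 genes differed between HT lithium males and HT fluoxetine males (31.5% called). Of these, 2626 rose (14.7%) and 3010 fell (16.8%). These shares are the background for the count of each gene list. The 49 lists were chosen with earlier results of these data known, so their counts describe the lists and are no test of them. Most changes were small: the median size among the called genes was 0.24, 527 exceeded 0.5 and 80 exceeded 1, while the median fold of all tested genes was 0.02. In 3413 genes (19.1%) the 5 HT lithium values and the 5 HT fluoxetine values did not overlap. The genes that rose had a median GC content of 44.7%, those that fell 55.8%, and all tested genes 49.8%. When a smooth trend on GC content and exon length was removed from each library, 798 genes rose (4.46%) and 1011 fell (5.65%), and 1306 of these were called in the same direction without the removal. Leaving out 1 library at a time gave 4659 to 5714 calls.

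**Figure D2:**
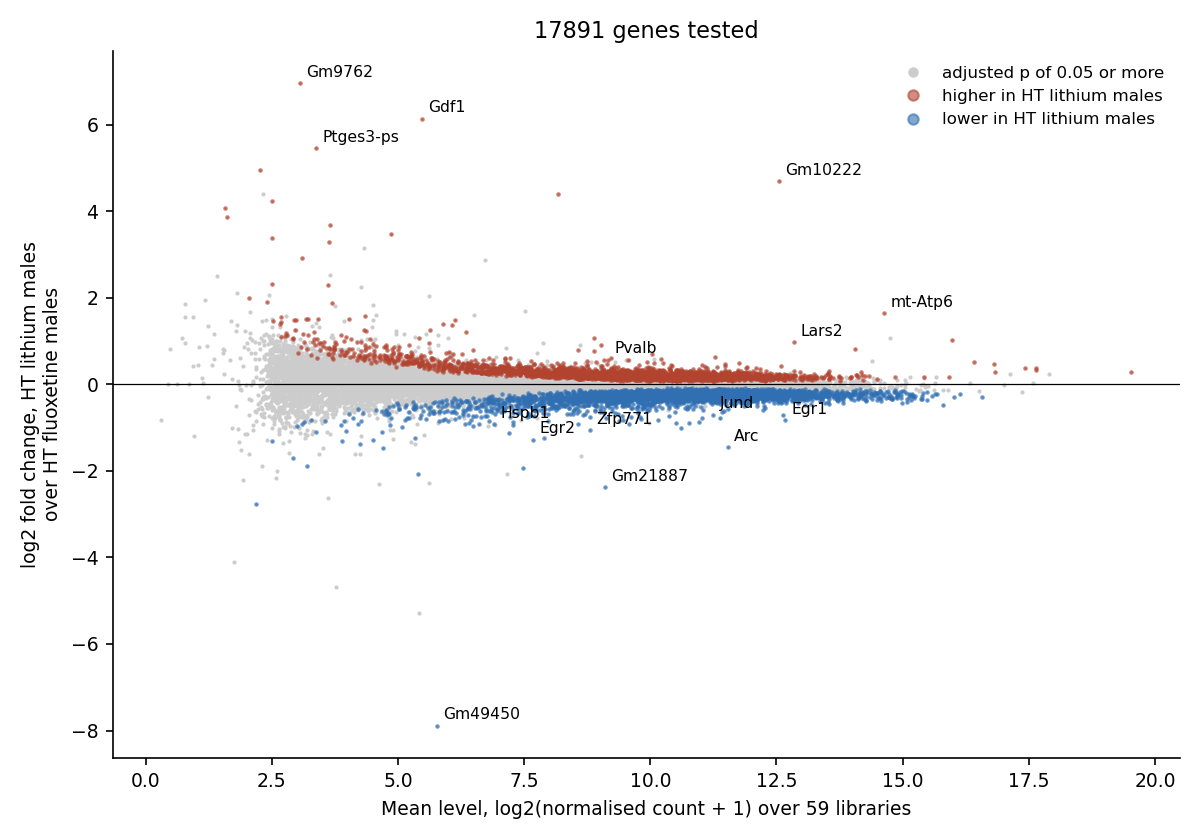
Log2 fold change of each tested gene, HT lithium males over HT fluoxetine males, against its mean level on the log2(normalised count + 1) scale over 59 libraries; coloured points passed the test. Most called genes lie within 0.5 of zero, Arc, Egr1 and Egr2 lie below it at -1.46, -0.82 and -1.28, and Gm9762 and Gdf1, at the top, are listed at 0 in the 5 HT fluoxetine males.

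Immediate early genes were lower in HT lithium males. Of 40 tested, 0 rose and 20 fell, with a median log2 fold of -0.44 against 0.02 for all tested genes. Arc, an immediate early gene of synaptic plasticity, had the lowest fold of the list: its normalised counts were 954, 769.6, 1375, 1289.7 and 2785 in HT lithium males, against 3769, 2563, 6939.9, 4656 and 1818 in HT fluoxetine males. Replicate 5 of the lithium group lay above 2 of the fluoxetine libraries, and the other 4 lithium values lay below all 5. Arc fell by 1.46 ± 0.35 on the log2 scale (adjusted p = 0.00081).

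The zinc finger factors of the Egr family fell together. Egr1 had normalised counts of 4031, 4392, 4174, 3542 and 5697 in HT lithium males, against 6736, 7417, 9638, 8148 and 6606 in HT fluoxetine males, with no overlap. It fell by 0.82 ± 0.15 (adjusted p = 3.06e-05). Egr4 had 620.5, 651, 509, 559.6 and 539 in HT lithium males, against 958, 985, 1335, 1168 and 999.8 in HT fluoxetine males. Those groups did not overlap either, and Egr4 fell by 0.91 ± 0.14 (adjusted p = 1.38e-06). Egr2, expressed at a lower level, had 93.7, 71.7, 110.3, 40.8 and 184 in HT lithium males, against 227, 188, 391, 181 and 162 in HT fluoxetine males. One lithium library reached the range of the fluoxetine libraries, and the fold was -1.28 ± 0.37 (adjusted p = 0.00613). Egr3 fell by 0.43 ± 0.09 with no overlap (adjusted p = 0.000338).

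Fos, Jun, Junb and Jund encode subunits of the AP-1 transcription factor. Fos had 299.9, 295, 408, 273 and 856 in HT lithium males, against 714, 685, 989, 757 and 453 in HT fluoxetine males. Lithium replicate 5 was higher than 4 of the 5 fluoxetine libraries, and the other 4 lithium libraries were lower than all 5. Fos fell by 0.86 ± 0.28 (adjusted p = 0.0158), but the call was lost without fluoxetine replicate 3 (-0.73, 0.0602) or lithium replicate 4 (-0.73, 0.0535). Jun and Junb fell by 0.28 ± 0.07 and 0.82 ± 0.22 (adjusted p = 0.00182 and 0.00337), and Fosb and Fosl2 of the same list stood at -0.50 ± 0.26 and -0.30 ± 0.19 (0.147 and 0.24). Fosb passed without lithium replicate 5 (adjusted p = 0.0439). Jund, of the same family, had 2149, 2268, 1855, 2216 and 1759 in HT lithium males, against 2849, 3263, 3622, 3554 and 3303 in HT fluoxetine males, with no overlap, and fell by 0.70 ± 0.09 (adjusted p = 6.08e-08). Nr4a1, an orphan nuclear receptor induced by activity, had 1319.7, 1355, 1249, 1209 and 1469 in HT lithium males, against 2071, 1669, 3655, 2596 and 1786 in HT fluoxetine males. It fell by 0.78 ± 0.20 without overlap (adjusted p = 0.00232).

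Ier2, Sik1 and Vgf also fell, by 0.71 ± 0.18, 0.62 ± 0.15 and 0.50 ± 0.10 (adjusted p = 0.00195, 0.00114 and 0.00019); Sik1 encodes a kinase that restrains CREB co-activators and Vgf a secreted neuropeptide precursor. Klf10, a zinc finger factor, fell by 0.80 ± 0.17 (adjusted p = 0.000172). Dusp6, a phosphatase that switches off ERK, fell by 0.53 ± 0.16 (adjusted p = 0.00759). That call rested on fluoxetine replicate 3, without which the fold was -0.38 (adjusted p = 0.0626). The activity-dependent factor Npas4 did not pass the test: its normalised counts were 353, 391, 553, 558 and 1135 in HT lithium males, against 397, 488, 570.1, 601 and 449 in HT fluoxetine males. The fold was 0.14 ± 0.26 (adjusted p = 0.732), and -0.12 without lithium replicate 5, which held the highest value.

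The list has a median GC content of 55.9%, against 49.8% for all tested genes. After removal of the GC and length trend 10 fell, 0 rose and the median was -0.31. Arc stood at -1.25 (adjusted p = 0.0144), Egr1 at -0.66 (0.00319), Egr4 at -0.40 (0.0155), Egr2 at -1.23 (0.0276) and Nr4a1 at -0.64 (0.035). Fos, Junb, Ier2 and Sik1 stood at -0.81, -0.51, -0.51 and -0.43 and no longer passed (adjusted p = 0.0639, 0.133, 0.0669 and 0.0677). Jun at -0.17 (0.137) did not pass either, and Jund at -0.25 (5.13e-05) did. Vgf stood at -0.10 (0.557). In a fit with each library's GC and length slopes as covariates instead, Arc stood at -1.51 and was not called (adjusted p = 0.176).

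The promoters of 4 of these genes are shown because members of the list moved together and the cyclic AMP response element (CRE) is the textbook motif of activity-driven transcription. Each window holds 250 bases before and 50 after the annotated start (RefSeq, GRCm38.p6), printed in the direction of transcription. Capitals mark TGACG, the core of the CRE, or its reverse complement CGTCA. The windows are Fos at chr12:85473640-85473939, plus strand, Junb at chr8:84978699-84978998, minus strand, Egr4 at chr6:85513540-85513839, minus strand, and Nr4a1 at chr15:101266596-101266895, plus strand.
Fos: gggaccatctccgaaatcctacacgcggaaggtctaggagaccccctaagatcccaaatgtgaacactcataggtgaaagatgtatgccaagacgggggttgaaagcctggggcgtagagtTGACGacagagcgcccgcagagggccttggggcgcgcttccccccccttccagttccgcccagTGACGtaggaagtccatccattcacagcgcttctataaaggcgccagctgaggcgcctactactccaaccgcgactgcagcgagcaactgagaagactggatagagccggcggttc
Junb: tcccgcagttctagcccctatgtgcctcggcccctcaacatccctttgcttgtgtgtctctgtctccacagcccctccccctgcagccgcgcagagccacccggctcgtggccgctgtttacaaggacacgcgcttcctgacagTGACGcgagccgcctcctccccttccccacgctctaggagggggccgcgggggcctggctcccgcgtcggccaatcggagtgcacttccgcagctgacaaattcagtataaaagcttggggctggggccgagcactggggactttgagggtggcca
Egr4: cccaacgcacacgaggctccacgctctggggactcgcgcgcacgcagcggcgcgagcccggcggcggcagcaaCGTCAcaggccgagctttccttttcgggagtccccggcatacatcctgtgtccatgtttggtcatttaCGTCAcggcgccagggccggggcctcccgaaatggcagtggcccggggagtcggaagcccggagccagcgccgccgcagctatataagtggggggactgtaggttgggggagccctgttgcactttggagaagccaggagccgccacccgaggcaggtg
Nr4a1: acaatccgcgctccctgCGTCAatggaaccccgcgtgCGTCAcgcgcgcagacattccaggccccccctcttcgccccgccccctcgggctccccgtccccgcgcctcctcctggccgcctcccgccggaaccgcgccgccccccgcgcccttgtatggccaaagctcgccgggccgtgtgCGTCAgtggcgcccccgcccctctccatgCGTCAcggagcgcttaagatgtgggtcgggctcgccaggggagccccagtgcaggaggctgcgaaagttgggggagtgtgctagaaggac
A script found this core 2 times in Fos, 1 time in Junb, 2 times in Egr4 and 4 times in Nr4a1, counting both strands. It was present in 58.3% of the 48 windows of the immediate early list (21 of 31 genes with a window) and in 28.4% of the 16169 windows of tested genes. The full palindrome TGACGTCA, which contains the core, was in 10.4% of the list's windows (5 genes) and 2.77% of those of tested genes, and in none of the 4 printed. The CArG box bound by serum response factor was in 10.4% and 1.37%, and the list's windows that held it came from 2 genes. Among the 18 windows of 13 list genes that fell, 12 held the core, 1 the palindrome and 4, all of 1 gene, the CArG box. By gene the core was in 9 of the 13 that fell, against 21 of 31 of the whole list. The shares describe the list as chosen and are no test of either drug. A match is a run of letters only, and binding was not measured.

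The circadian clock list overlaps with the immediate early list at Per1, and 10 of its 20 tested genes fell while 0 rose (median -0.15). Per1, a negative limb gene of the clock that activity and glucocorticoids also induce, had 2124, 2009.9, 1953, 2001 and 2052 in HT lithium males, against 3183, 2921, 3936, 2876 and 2761 in HT fluoxetine males. The groups did not overlap, the lithium values were tightly grouped, and Per1 fell by 0.62 ± 0.11 (adjusted p = 3.27e-05). Nr1d1, which encodes the repressor REV-ERB alpha, had 2064, 2303, 1998, 2052 and 1872 in HT lithium males, against 2659.9, 2879, 3039, 2708 and 2768 in HT fluoxetine males. It fell by 0.45 ± 0.07 without overlap (adjusted p = 6.91e-07). Bhlhe40, a repressor of clock output, fell by 0.65 ± 0.16, Dbp, a clock-controlled factor, by 0.49 ± 0.10, and Per2 by 0.41 ± 0.12 (adjusted p = 0.00128, 0.000135 and 0.00524). Cry2, a core repressor, fell by 0.27 ± 0.04 (adjusted p = 2.55e-06). With the GC and length trend removed 7 fell and the median was -0.09; Per1, Nr1d1, Bhlhe40 and Dbp passed (-0.34, -0.32, -0.66 and -0.34), and Per2 and Cry2 did not (-0.26 and -0.12). The hour at which tissue was taken is not in the labels.

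**Figure D3:**
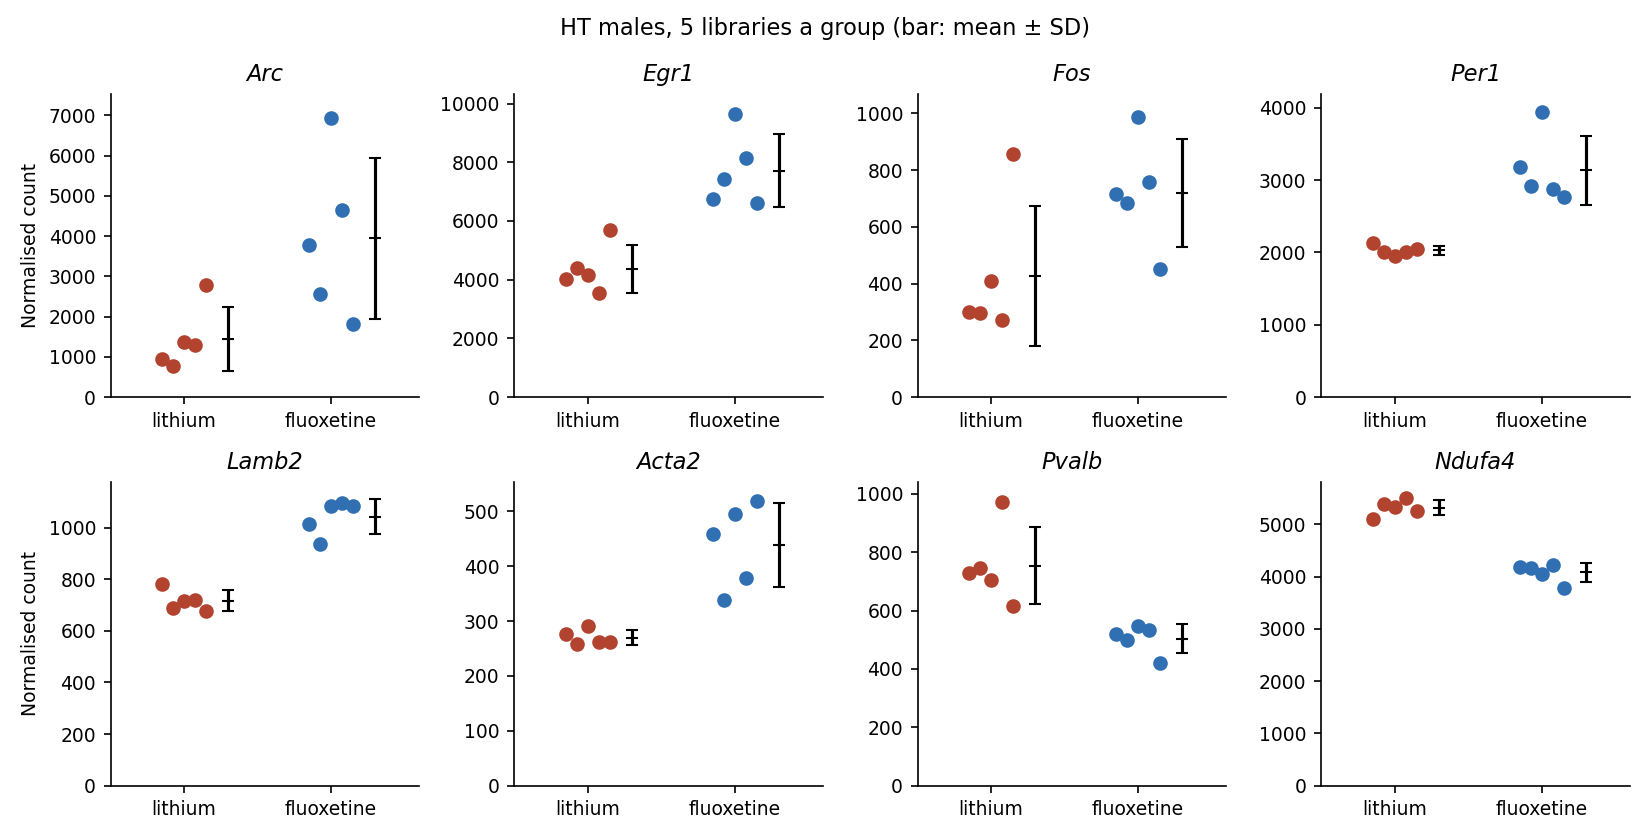
Normalised count of 8 genes in each of the 5 HT lithium males and 5 HT fluoxetine males, with the mean ± SD of each group. Egr1, Per1, Lamb2, Acta2, Pvalb and Ndufa4 do not overlap between the groups, while 1 lithium library reaches into the fluoxetine range for Arc and for Fos.

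Most called genes of the vessel wall lists were lower in HT lithium males. Of 16 basement membrane genes 0 rose and 11 fell (median -0.40). Lamb2, a laminin chain, had 783, 687, 714, 719 and 678 in HT lithium males, against 1013, 937, 1085, 1096 and 1083 in HT fluoxetine males. No values overlapped, and it fell by 0.54 ± 0.06 (adjusted p = 8.21e-09). Hspg2, which encodes perlecan, had 483, 453, 429, 461 and 385 in HT lithium males, against 665, 699, 736, 697 and 754 in HT fluoxetine males. It also fell without overlap, by 0.68 ± 0.10 (adjusted p = 9.38e-07). The laminin gene Lamc1 fell by 0.40 ± 0.07 and the collagen gene Col4a2 by 0.43 ± 0.08 (adjusted p = 1.45e-05 and 1.99e-05).

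Among 20 endothelial markers 10 fell and 4 rose (median -0.27). Those that rose were Slco1a4, a transporter of the blood-brain barrier, and Ly6c1, Ly6a and Itm2a, by 0.30 ± 0.10, 0.29 ± 0.09, 0.25 ± 0.09 and 0.18 ± 0.07 (adjusted p = 0.0166, 0.00917, 0.0279 and 0.0382). Without lithium replicate 3 the increases numbered 2 and without lithium replicate 5 they numbered 1. Itm2a was not called without fluoxetine replicate 3, 4 or 5 or lithium replicate 1, 3 or 5, nor Ly6a without fluoxetine replicate 2 or lithium replicate 2, 3 or 5 (adjusted p 0.0528 to 0.142). Cdh5, the cadherin of endothelial junctions, had 443, 415, 461, 431 and 393 in HT lithium males, against 608, 582, 609, 604 and 587 in HT fluoxetine males. It fell by 0.48 ± 0.09 (adjusted p = 4.38e-05). Vwf, von Willebrand factor, and Pltp, a phospholipid transfer protein, fell by 0.44 ± 0.09 and 0.44 ± 0.07 (adjusted p = 0.000224 and 8.33e-06). Of 14 pericyte and smooth muscle markers 0 rose and 7 fell (median -0.31). Acta2, smooth muscle actin, had 276, 259, 291, 263 and 261 in HT lithium males, against 459, 339, 494, 379 and 519 in HT fluoxetine males. It fell by 0.68 ± 0.15 without overlap (adjusted p = 0.000414), and Notch3, the mural cell receptor, by 0.44 ± 0.08 (adjusted p = 1.69e-05). Of 16 meningeal and fibroblast markers 0 rose and 6 fell (median -0.37). The fibrillar collagen genes Col1a1 and Col3a1 fell by 0.78 ± 0.22 and 0.70 ± 0.16, and Bgn, the proteoglycan biglycan, by 0.57 ± 0.13 (adjusted p = 0.0044, 0.000759 and 0.000783).

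The summed normalised count of the endothelial list was 25777 to 28369 in HT lithium males and 30606 to 32271 in HT fluoxetine males, without overlap. The pericyte and smooth muscle sum was 7166 to 8787 in HT lithium males and 8632 to 9782 in HT fluoxetine males, and the meningeal sum 7080.0 to 9704 and 9513 to 12150.3. Lower sums were not confined to these lists. The astrocyte sum (247422 to 273133 against 277975 to 303121) and the oligodendrocyte precursor sum (18803 to 20343 against 21440 to 24378) did not overlap between the groups either. In bulk tissue fewer cells of a type and less RNA per cell cannot be told apart. With the GC and length trend removed 6 basement membrane, 5 endothelial, 2 pericyte and 4 meningeal genes fell and 0 rose in any of the 4 lists. Acta2 (-0.74), Cdh5 (-0.41), Col3a1 (-0.72), Bgn (-0.47), Hspg2 (-0.29), Lamc1 (-0.32), Pltp (-0.29) and Lamb2 (-0.27) then passed the test. Col1a1 (-0.53), Notch3 (-0.12), Vwf (-0.23) and Col4a2 (-0.10) did not.

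Glial markers were also counted. Of 20 astrocyte markers 1 rose and 7 fell (median -0.14). The apolipoprotein genes Clu and Apoe fell by 0.37 ± 0.06 and 0.43 ± 0.08 (adjusted p = 1.04e-06 and 3.90e-05). Of 18 microglia markers 0 rose and 4 fell, against 14.7% and 16.8% of all tested genes, but 2 fell without fluoxetine replicate 4. Csf1r, the receptor on which microglia depend, fell by 0.35 ± 0.07 (adjusted p = 5.75e-05). Apoe and Csf1r stood at -0.22 and -0.20 with the trend removed and passed. Of 12 oligodendrocyte precursor markers 0 rose and 4 fell (median -0.23), against 0 and 0 with the trend removed. The 24 oligodendrocyte and myelin markers had a median of -0.10. Their summed count was 117874 to 160031 in HT lithium males and 89018 to 216873 in HT fluoxetine males, so a difference in myelin genes was not detectable over that spread. Of 22 dividing and immature cell markers 2 rose and 5 fell (median 0.04), and 0 and 1 with the trend removed. Among them Nes, the intermediate filament gene nestin, fell by 0.76 ± 0.14 (adjusted p = 2.86e-05). The sum of that list was 37994 to 50881 in HT lithium males and 39793 to 44623 in HT fluoxetine males. Markers of neighbouring regions were high in a few libraries. The striatum sum was 9928 to 11511 in HT lithium males and 9764 to 34673 in HT fluoxetine males, where replicate 2 held the highest value. In HT vehicle males it was 9727 to 36013, with the highest value in replicate 3. The olfactory bulb sum was 40363 in HT lithium replicate 5, the library that was also high for Arc and Fos, 28081 in replicate 3 and 12484 to 14401 in the other HT lithium males, against 12595 to 19119 in HT fluoxetine males. The part of these sums in the results was not tested. All 26 excitatory neuron and layer markers of cortex were detected, with their sum at 74353 to 89396 in HT lithium males and 89247 to 97375 in HT fluoxetine males.

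Most called heat shock chaperones were lower. Of 20, 10 fell and 2 rose (median -0.19), and 7 fell and 0 rose after removal of the GC and length trend (median -0.21). Hspb1, a small heat shock protein, had 97.5, 75.7, 115, 117 and 79.3 in HT lithium males, against 174, 180.0, 164, 177 and 208 in HT fluoxetine males. There was no overlap, and it fell by 0.91 ± 0.18 (adjusted p = 7.44e-05). Hspa1a, the inducible Hsp70, fell by 0.50 ± 0.10 and Hsp90ab1, the constitutive Hsp90, by 0.26 ± 0.05 (adjusted p = 0.000103 and 6.97e-05); Hspa1a stood at -0.30 with the trend removed. With the trend removed the unfolded protein response had 1 increase and 5 decreases among 25 genes. Without that removal it had 4 increases and 3 decreases (median 0.00), against 14.7% and 16.8% of all tested genes. The increases numbered 1 without fluoxetine replicate 3 or 5, 2 without fluoxetine replicate 4 and 0 without lithium replicate 5, and the decreases 1 without lithium replicate 2. Hyou1 and Pdia4, chaperones of the endoplasmic reticulum, fell by 0.30 ± 0.04 and 0.32 ± 0.10 (adjusted p = 1.27e-07 and 0.00876), and Atf4, a factor of the integrated stress response, rose by 0.18 ± 0.06 (adjusted p = 0.0145). Pdia4 lost its call without lithium replicate 2 (-0.23, adjusted p = 0.0617) and Atf4 without lithium replicate 5 (0.14, adjusted p = 0.0747).

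Transcripts of the respiratory chain and of ribosomes were higher in HT lithium males. Among 93 oxidative phosphorylation genes of the nucleus, 52 rose while 5 fell (median 0.20). Atp5mpl, a small subunit of the ATP synthase, had 1499.6, 1386, 1540.1, 1499 and 1608 in HT lithium males, against 1097, 1113, 1067, 1044 and 996 in HT fluoxetine males. The groups were far apart, and it rose by 0.50 ± 0.04 (adjusted p = 5.84e-12). Ndufa4, a subunit of cytochrome c oxidase, had 5114, 5382, 5340.2, 5503 and 5254 in HT lithium males, against 4179.9, 4162, 4061, 4227 and 3781 in HT fluoxetine males. It rose by 0.38 ± 0.04 without overlap (adjusted p = 1.96e-09). After removal of the GC and length trend 18 of the 93 rose and 5 fell (median 0.05); Atp5mpl stood at 0.35 (adjusted p = 9.25e-08) and Ndufa4 at 0.10 (0.253).

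Of 13 mitochondrially encoded genes 6 rose and 0 fell (median 0.28), and 3 rose without lithium replicate 1 or without lithium replicate 5. mt-Atp6, a subunit of the ATP synthase, had 39695, 35291, 43584, 45291 and 50955 in HT lithium males, against 11864, 19493, 9631, 13424 and 15675 in HT fluoxetine males. The lowest lithium library was above the highest fluoxetine library, and the gene rose by 1.65 ± 0.15 (adjusted p = 3.09e-11). mt-Nd1 and mt-Co2, subunits of complexes I and IV, rose by 0.39 ± 0.11 and 1.02 ± 0.30 (adjusted p = 0.00351 and 0.00739). Without the trend mt-Atp6 stood at 1.16 (adjusted p = 8.78e-07), mt-Nd1 at -0.02 (0.941) and mt-Co2 at 0.55 (0.28), and the median of the list was -0.11. Gm10222 (chromosome 1, 24612407 to 24612700) and its neighbour Gm28438 are nuclear copies of mitochondrial sequence, and counting could split reads between them and the mitochondrial genes, so their values are uncertain. Gm28438 rose by 0.83 ± 0.11 (adjusted p = 1.24e-07), a call lost once the trend was removed (0.16, 0.352). Gm10222 had 24093, 20083, 6004, 29528 and 19386 in HT lithium males, against 2405, 5879, 0, 1731 and 5888 in HT fluoxetine males. It passed the test (adjusted p = 0.0325), but not with the trend removed (0.137), not without fluoxetine replicate 3 (2.34, 0.288), nor without lithium replicates 1, 2, 4 or 5 (adjusted p 0.0507 to 0.0573).

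Cytosolic ribosomal proteins gave 42 increases and 8 decreases among 84 genes (median 0.15), and 24 and 8 with the trend removed (median 0.10). Rpl22l1, a paralogue of Rpl22, had 683, 639, 726, 655 and 705 in HT lithium males, against 527, 475, 469, 459 and 397 in HT fluoxetine males. It rose by 0.55 ± 0.06, and Rpl22 by 0.27 ± 0.03 (adjusted p = 6.74e-09 and 9.75e-10). Rpl10 and the retrogene copies Rpl37rt and Rps27rt rose by 0.71 ± 0.17, 0.76 ± 0.18 and 0.58 ± 0.08 (adjusted p = 0.000891, 0.000668 and 8.53e-08), with the share of reads from near-identical copies uncertain. With the trend removed Rpl22l1 stood at 0.29 and passed, and Rps27rt at 0.04 and did not. Of 78 mitochondrial ribosomal protein genes 33 rose and 5 fell, and 14 rose and 1 fell with the trend removed. Lars2, the mitochondrial leucyl-tRNA synthetase, rose by 0.97 ± 0.32 (adjusted p = 0.0162), a call lost without fluoxetine replicate 5 (0.79, adjusted p = 0.0704).

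**Figure D4:**
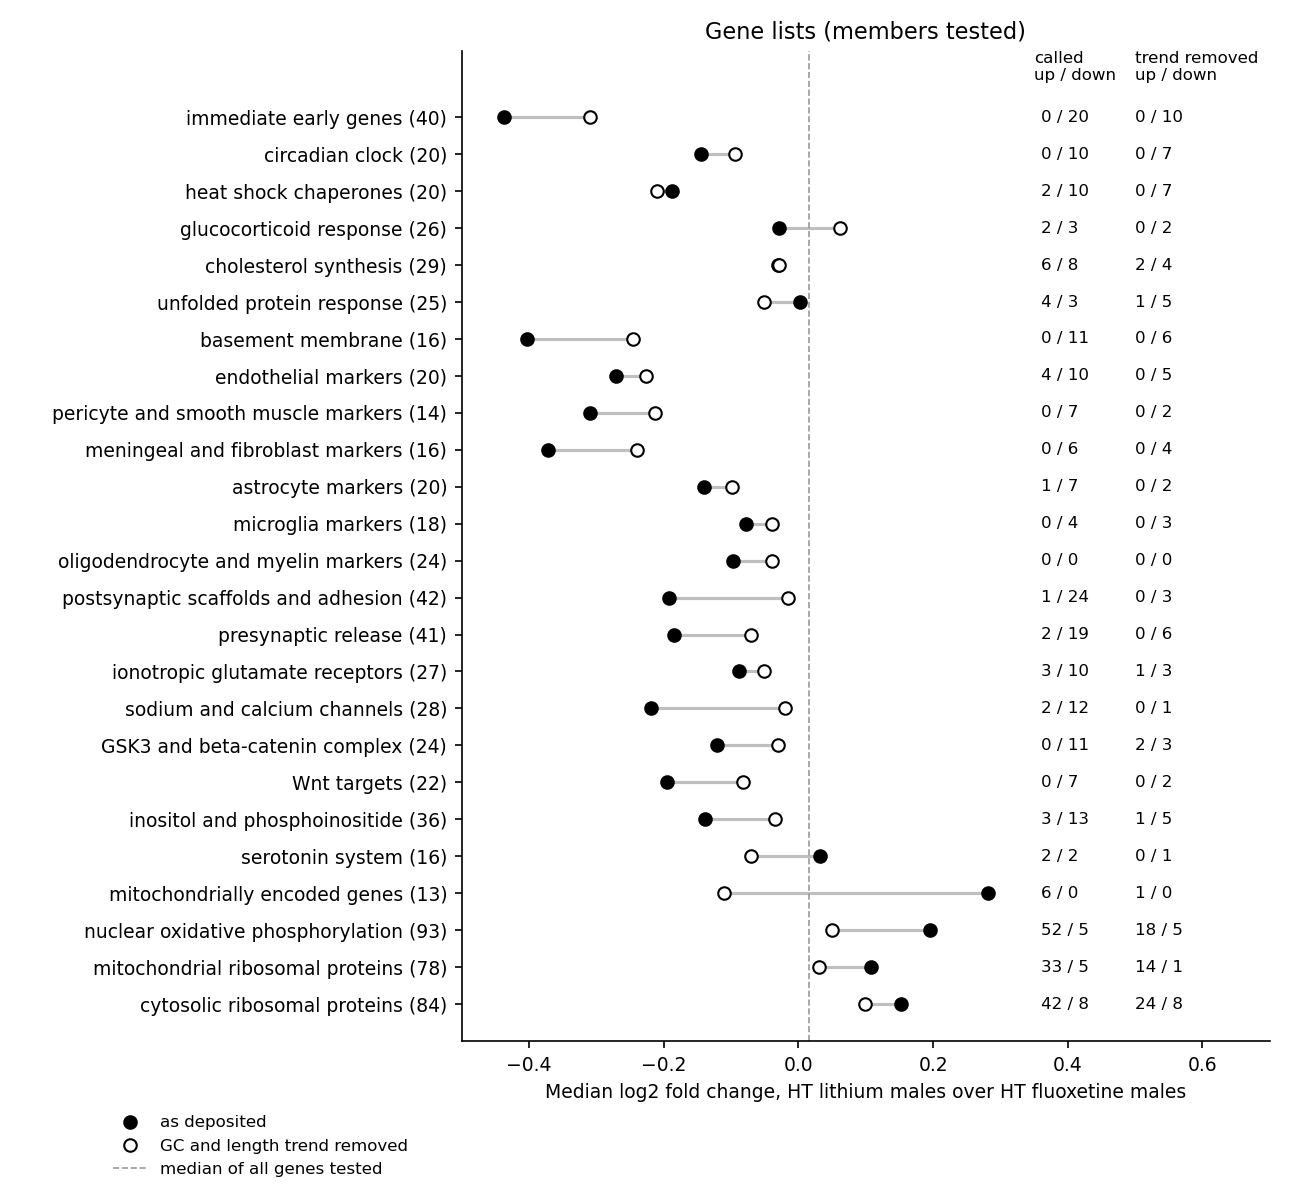
Median log2 fold change of 25 gene lists, HT lithium males over HT fluoxetine males, from the deposited values (filled) and after removal of the GC and length trend (open), with the number of members called higher and lower at the right. The immediate early list moves from -0.44 to -0.31 and keeps 10 of 20 decreases, while the postsynaptic list moves from -0.19 to -0.02 and keeps 3 of 24.

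Fewer synaptic genes were called once the GC and length trend was removed, and so were fewer of all tested genes. Of the latter, 14.7% rose and 16.8% fell before the removal, and 4.46% and 5.65% after it. Postsynaptic scaffold and adhesion genes numbered 42, of which 24 fell and 1 rose (median -0.19). Lrrc4b, a synaptic adhesion protein, had 3715, 3857, 3388, 3923 and 3409 in HT lithium males, against 4691, 5075, 5334, 5365 and 5240.2 in HT fluoxetine males, with no overlap. It fell by 0.49 ± 0.06 (adjusted p = 2.90e-09). Nrxn2, a neurexin, fell by 0.42 ± 0.04, Nlgn3, a neuroligin, by 0.21 ± 0.03, and Shank3, a postsynaptic density scaffold, by 0.32 ± 0.07 (adjusted p = 4.60e-10, 8.21e-09 and 0.00049). With the trend removed 0 rose and 3 fell (median -0.02): Nrxn2 stood at -0.01 and Shank3 at 0.08, neither called, and Nlgn3 and Lrrc4b at -0.16 and -0.12, both called. Presynaptic release genes numbered 41, of which 19 fell and 2 rose (median -0.19), against 6 and 0 with the trend removed. Rims1, which organises the vesicle release site, had 7352, 7004, 7122, 7949 and 6762 in HT lithium males, against 9497, 9551, 10356, 10298 and 9472 in HT fluoxetine males. It fell by 0.44 ± 0.06 and by the same amount with the trend removed (-0.44; adjusted p = 7.58e-08 and 3.86e-06). Syn1, synapsin I, fell by 0.37 ± 0.04 (adjusted p = 1.80e-09) and stood at -0.20 with the trend removed (0.0013).

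Receptor and channel genes were counted next. Of all tested genes 14.7% rose and 16.8% fell, shares that the GABA and metabotropic glutamate receptor counts did not exceed. With the trend removed 4.46% of all tested genes rose and 5.65% fell. Of 27 ionotropic glutamate receptor genes 3 rose and 10 fell, and 1 and 3 with the trend removed. Those that fell included the NMDA receptor subunits Grin1 and Grin2d (-0.34 and -0.61) and the AMPA receptor auxiliary subunit Cacng8 (-0.54; adjusted p = 9.16e-07, 8.26e-08 and 2.73e-09). Cacng8 stood at -0.18 with the trend removed and passed, while Grin1 (-0.05) and Grin2d (-0.09) did not. Of 17 GABA receptor genes 0 rose and 2 fell (median 0.10). These were Gabbr1 and Gabbr2, the subunits of the GABA-B receptor, which fell by 0.13 ± 0.03 and 0.23 ± 0.06 (adjusted p = 0.000138 and 0.00345) and stood at 0.01 and -0.04 with the trend removed, neither called. Of 10 metabotropic glutamate receptor genes 0 rose and 1 fell, Grm3, by 0.24 ± 0.07 (adjusted p = 0.00595; -0.17 and 0.0588 without lithium replicate 5). Of 28 sodium and calcium channel genes 2 rose and 12 fell, 1 and 8 without lithium replicate 5, and 0 and 1 with the trend removed. Of 81 potassium channel genes 5 rose and 20 fell, 4 and 12 without lithium replicate 5, and 4 and 2 with the trend removed (median -0.01). Kcnk12, a potassium channel subunit, had 101 to 139 in HT lithium males, against 184 to 251.9 in HT fluoxetine males. It fell by 0.95 ± 0.12 without overlap (adjusted p = 1.77e-08), and stood at -0.40 with the trend removed (0.00572). Hcn2, a pacemaker channel, fell by 0.48 ± 0.06 (adjusted p = 3.95e-09) but stood at -0.06 with the trend removed. Adra2c, an alpha-2 adrenergic receptor, fell by 0.69 ± 0.11 (adjusted p = 1.72e-06) and stood at -0.25 with the trend removed.

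Among interneuron markers 3 rose and 3 fell of 24, against 14.7% and 16.8% of all tested genes. Pvalb, the calcium buffer of fast-spiking interneurons, had 727, 747, 704, 973 and 615 in HT lithium males, against 521, 498, 547, 532 and 421 in HT fluoxetine males. All lithium values lay above all fluoxetine values, and Pvalb rose by 0.57 ± 0.14 (adjusted p = 0.00086); it stood at 0.39 with the trend removed (0.0492). The neuropeptide gene Vip rose by 0.32 ± 0.10 and Sst, somatostatin, fell by 0.30 ± 0.10 (adjusted p = 0.0125 and 0.0138). Vip lost its call with the trend removed (0.08, 0.709) and without fluoxetine replicate 2 (0.26, adjusted p = 0.0578), and Sst without fluoxetine replicate 4 (-0.26, 0.0554) or lithium replicate 5 (-0.21, 0.112).

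Transcripts of the direct targets of lithium came next. Gsk3b, the kinase it inhibits, had 5841, 6292, 5997, 6159 and 6054 in HT lithium males, against 6876, 6324, 5814, 6012 and 5527 in HT fluoxetine males, with a fold of -0.01 ± 0.07 (adjusted p = 0.957), whose sign depended on the library left out and on the scaling. Gsk3a fell by 0.18 ± 0.04 (adjusted p = 0.000877) and stood at 0.02 with the trend removed. Impa1, the inositol monophosphatase that lithium inhibits, had 1926, 1909, 1989, 2076 and 2024 in HT lithium males, against 1854, 1839, 1699, 1799.9 and 1722 in HT fluoxetine males. It rose by 0.15 ± 0.03 (adjusted p = 0.00035) and stood at 0.04 with the trend removed (0.647). Isyna1, which makes inositol from glucose phosphate, fell by 0.39 ± 0.10 (adjusted p = 0.00128) and stood at -0.14 with the trend removed (0.274). Of 36 inositol and phosphoinositide genes 3 rose and 13 fell, against 1 and 5 with the trend removed. Of 24 genes of the GSK3 and beta-catenin complex 0 rose and 11 fell, against 2 and 3. Ctnnb1, beta-catenin, fell by 0.12 ± 0.04 (adjusted p = 0.0103), and Apc2, of the destruction complex, by 0.35 ± 0.04 (1.77e-08) with a value of 0.02 once the trend was removed. Ctnnb1 lost its call with the trend removed (-0.08, 0.213), after quantile normalisation (-0.06, 0.344) and in a fit of the 10 libraries alone (-0.12, 0.0514).

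Transcriptional targets of Wnt signalling were counted next. Of 22 tested, 0 rose and 7 fell (median -0.20), 4 fell without lithium replicate 4, and 2 fell with the trend removed. Tcf7l1, a repressor of the pathway, had 57.2, 84.8, 69.0, 72.2 and 89.0 in HT lithium males, against 119.6, 139, 92.1, 143 and 132 in HT fluoxetine males. It fell by 0.74 ± 0.12 without overlap (adjusted p = 2.60e-06). The feedback inhibitors Nkd1 and Axin2 fell by 0.34 ± 0.07 and 0.22 ± 0.06 (adjusted p = 0.000215 and 0.00178). With the trend removed Tcf7l1 and Nkd1 stood at -0.52 and -0.21 and passed, and Axin2 at -0.04 did not.

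Of 16 tested genes of the serotonin system, on which fluoxetine acts, 2 rose and 2 fell, against 14.7% and 16.8% of all tested genes. Htr1b, a presynaptic receptor, had 297, 244, 286, 342 and 284 in HT lithium males, against 345, 458, 366, 363 and 363 in HT fluoxetine males. It fell by 0.38 ± 0.10 without overlap (adjusted p = 0.0019) and stood at -0.44 with the trend removed (0.00196). Htr6 fell by 0.41 ± 0.11 and Maoa, the enzyme that degrades serotonin, rose by 0.19 ± 0.05 (adjusted p = 0.00317 and 0.00103); neither passed with the trend removed (-0.07 and -0.02). Cholesterol synthesis had 6 increases and 8 decreases among 29 genes (median -0.03), and 2 and 4 with the trend removed. The increases numbered 2 without fluoxetine replicate 3, 4 or 5 or without lithium replicate 1, 4 or 5. Scap and Srebf2, which control the pathway, fell by 0.32 ± 0.04 and 0.27 ± 0.04, Mvd, a mevalonate enzyme, by 0.38 ± 0.07, and Fasn, fatty acid synthase, by 0.33 ± 0.06 (adjusted p = 1.42e-08, 9.24e-07, 2.24e-05 and 1.16e-05). Scap and Mvd stood at -0.13 and -0.21 with the trend removed and passed, and Srebf2 (-0.03) and Fasn (-0.03) did not.

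Further genes were named by the size of their change. Among increases, Tmem256 and the predicted genes Gm15387 and Gm4724 rose by 0.54 ± 0.06, 0.92 ± 0.12 and 1.06 ± 0.19 (adjusted p = 2.93e-09, 1.34e-07 and 1.88e-05). Among decreases, the zinc finger gene Zfp771 had 409.6, 422, 293, 393 and 265 in HT lithium males, against 572, 639, 863, 841 and 767 in HT fluoxetine males. It fell by 1.05 ± 0.16 (adjusted p = 1.24e-06). The linker histone gene H1fx fell by 0.92 ± 0.11 and the replacement histone gene H3f3a rose by 0.37 ± 0.05 (adjusted p = 5.51e-09 and 3.89e-07). Vstm2l, Tmem158, C1qtnf4 and Prr7 fell by 0.89 ± 0.13, 0.82 ± 0.12, 0.78 ± 0.10 and 0.76 ± 0.12 (adjusted p = 7.97e-07, 9.87e-07, 3.33e-08 and 1.69e-06). With the trend removed these stood at -0.40, -0.50, -0.23 and -0.28, Gm15387 at 0.55, Zfp771 at -0.70 and H1fx at -0.36, all called. Actb, cytoplasmic actin, fell by 0.32 ± 0.03 (adjusted p = 3.91e-10). The predicted gene Gm21887 on the X chromosome had 385, 350.5, 196, 476 and 77.4 in HT lithium males, against 733, 1019.7, 1486, 1492 and 2192 in HT fluoxetine males. It fell by 2.37 ± 0.42 without overlap (adjusted p = 1.64e-05). The kinesin-1 motor gene Kif5c fell by 0.14 ± 0.04 (adjusted p = 0.0115), but not with the trend removed (-0.12, 0.091), not without fluoxetine replicate 2 (-0.12, 0.0524) or lithium replicate 5 (-0.11, 0.0656).

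Overlapping annotations moved in opposite directions and are uncertain. One entry of Myl12b, a regulatory light chain of myosin (ENSMUSG00000117098, chromosome 17, 70974119 to 71002208, minus strand), had 845, 839, 937, 1092 and 1144 in HT lithium males, against 1599, 1828, 1924, 1936 and 1743 in HT fluoxetine males. It fell by 0.90 ± 0.10 (adjusted p = 8.44e-10), while the overlapping entry ENSMUSG00000034868 rose by 0.18 ± 0.05 (adjusted p = 0.00668; 0.0505 with the trend removed). The genes Gm9762, Gdf1, Dynlt1-ps1 and Gm49450 lie below the median level and were picked after their values were seen. Gm9762 had 130.3, 88.9, 141, 122 and 147 in HT lithium males, against 0 in the 5 HT fluoxetine males. Gdf1, a growth factor gene that overlaps Cers1, had 68.4, 98.0, 60.7, 47.1 and 84.2 in HT lithium males, also against 0 in the 5 HT fluoxetine males. Dynlt1-ps1 had 12.2 to 18.2 in HT lithium males and 0 in the 5 HT fluoxetine males. Gm49450, which spans Tuba1a and Tuba1b, had 0, 320.2, 0, 0 and 0 in HT lithium males, against 401, 1128, 1011, 811 and 640.3 in HT fluoxetine males. HT vehicle males averaged 0 for Gm9762 and for Dynlt1-ps1, and 810.7 ± 307 (SD, n = 4) for Gm49450. Gm9762 was 102 to 148 in HT lithium females and 106 to 172 in HT fluoxetine females. A 0 here says only that the gene is listed at 0.

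Each drug was then set against the 4 HT vehicle males. The comparisons share those libraries, so their values are only given side by side. Lithium against vehicle called 6952 genes (38.9%), 3335 higher (18.6%) and 3617 lower (20.2%). Fluoxetine against vehicle called 29 (0.162%), 17 higher (0.0950%) and 12 lower (0.0671%). The count of 29 fell to 12 without fluoxetine replicate 1, 2 or 3, to 11 and 14 without vehicle replicates 1 and 3, and to 0 without vehicle replicate 4, and 1544 genes had an unadjusted p under 0.05. Arc averaged 1435 ± 794 in HT lithium males, 3949 ± 1996 in HT fluoxetine males and 6476 ± 1579 in HT vehicle males (SD, n = 5, 5 and 4), and its folds against vehicle were -2.29 for lithium and -0.84 for fluoxetine. Lamb2 averaged 716 ± 41.0, 1043 ± 67.6 and 1232 ± 96.8 in HT lithium, HT fluoxetine and HT vehicle males. The immediate early list had a median of -0.54 for lithium and -0.15 for fluoxetine, and the basement membrane list -0.57 and -0.20.

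Glucocorticoid response genes numbered 26, of which 8 rose and 4 fell under lithium against vehicle, and 3 rose and 0 fell under fluoxetine against vehicle. Of the same genes, 2 rose and 3 fell between lithium and fluoxetine, and the total of 5 was 2 or 3 without fluoxetine replicate 3, 4 or 5 or lithium replicate 1, 2, 3 or 5. Fkbp5, a chaperone induced through the glucocorticoid receptor, had 1435, 1508, 1246, 1273 and 1422 in HT lithium males, against 1266, 1137, 1458, 1256 and 1345 in HT fluoxetine males, with a fold of 0.09 ± 0.12 (adjusted p = 0.613). HT vehicle males averaged 804 ± 115 (SD, n = 4), and Fkbp5 rose against them by 0.78 under lithium and 0.69 under fluoxetine (adjusted p = 2.62e-06 and 0.00916). Hif3a, a regulator of the hypoxia response, had 460.2, 439, 359.5, 340.0 and 412 in HT lithium males, against 322, 272, 379, 347 and 393 in HT fluoxetine males, and averaged 159.9 ± 46.5 in HT vehicle males (SD, n = 4). Against vehicle it rose by 1.36 under lithium and 1.13 under fluoxetine (adjusted p = 1.23e-06 and 0.00916). On the same scale Map3k6, a stress kinase, rose by 0.53 under lithium and 0.93 under fluoxetine, and Xbp1, a factor of the unfolded protein response, by 0.23 and 0.36 (adjusted p 0.00917 to 0.0228). Insig1, a brake on sterol synthesis, fell by 0.24 under lithium and by 0.30 under fluoxetine (adjusted p = 0.00219 and 0.0263). The calls of these genes under fluoxetine are among the 29 against vehicle. Of those, 0 were left without vehicle replicate 4, and 0 in a fit of only the groups compared. Between the drugs Map3k6 stood at -0.41 ± 0.17 (adjusted p = 0.0636), and passed without fluoxetine replicate 2 (-0.48, 0.0414) or without lithium replicates 1 (-0.49, 0.0356) or 4 (-0.46, 0.0484). Xbp1 and Insig1 stood at -0.13 ± 0.07 and 0.06 ± 0.06 (adjusted p = 0.167 and 0.466). Cables1 of the glucocorticoid list, a partner of the kinase Cdk5, fell by 0.28 ± 0.08 (adjusted p = 0.00734) and stood at -0.07 with the trend removed (0.649).

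**Figure D5:**
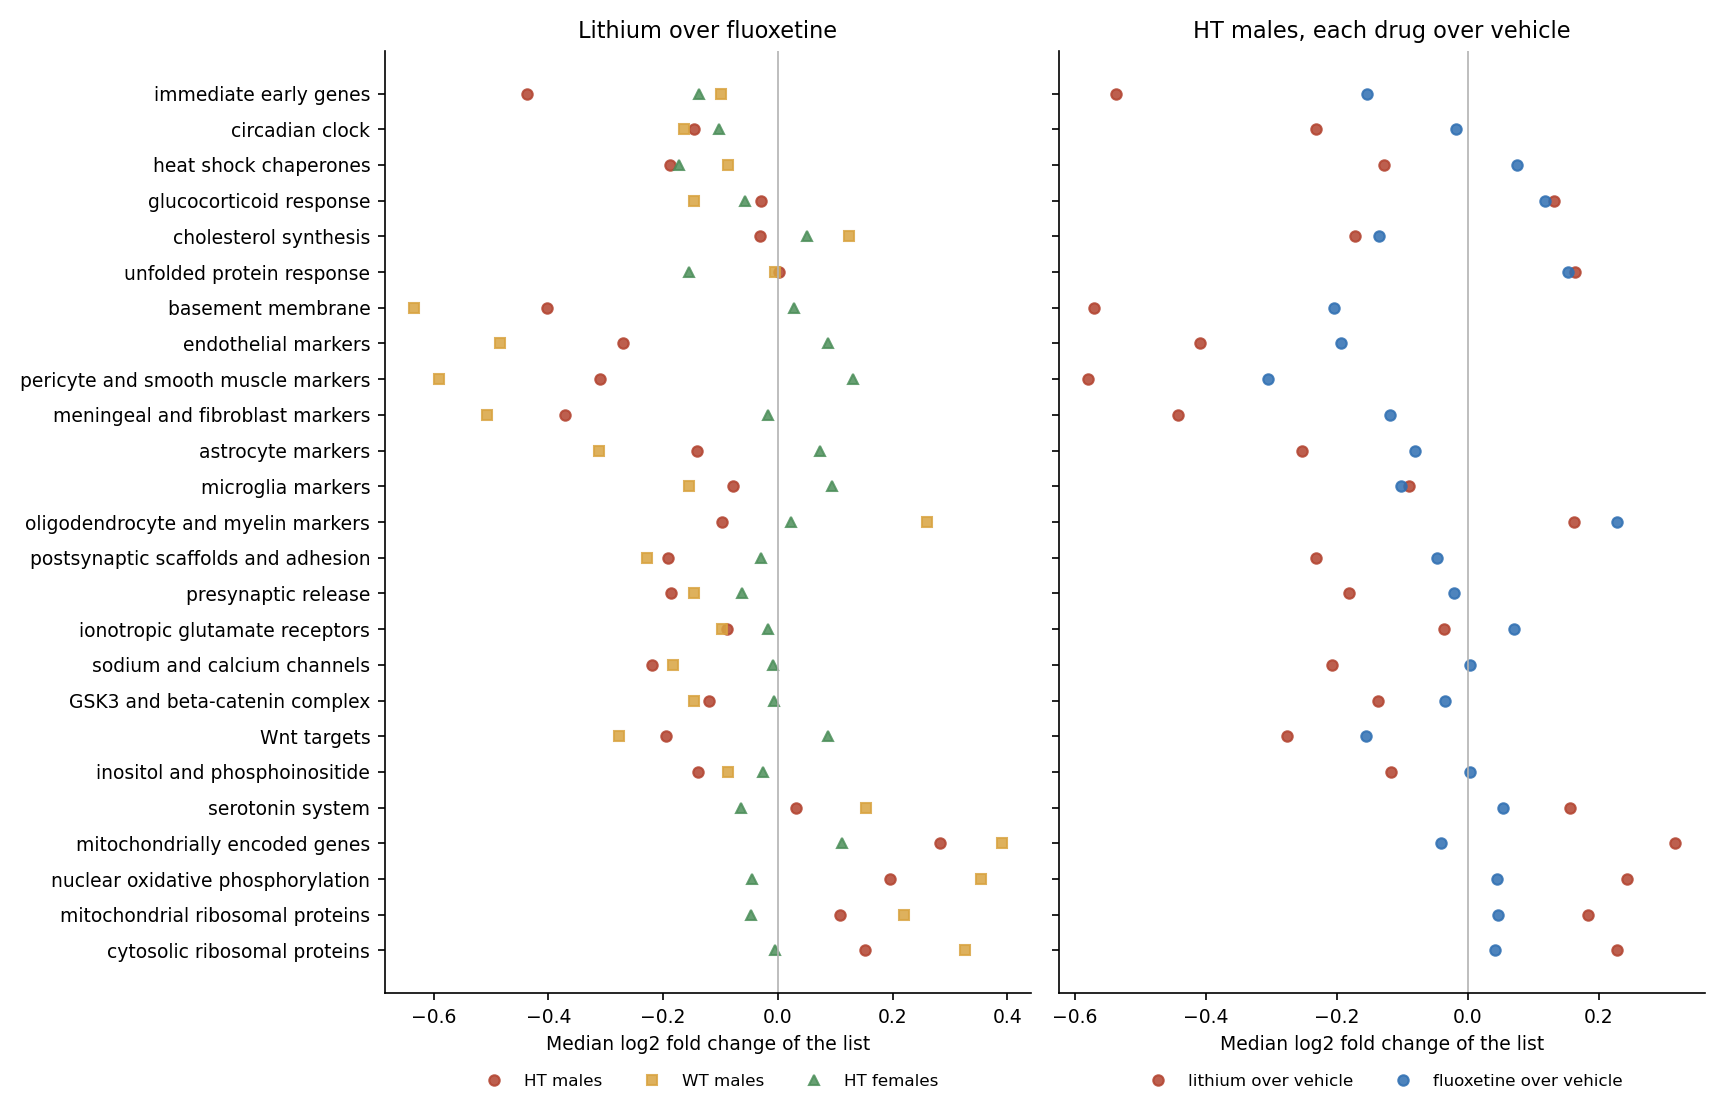
Median log2 fold change of 25 gene lists for lithium over fluoxetine in HT males, WT males and HT females (left), and for each drug over vehicle in HT males (right). The basement membrane list stands at -0.40 in HT males, -0.63 in WT males and 0.03 in HT females, and at -0.57 for lithium and -0.20 for fluoxetine against vehicle.

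The same contrast in WT males asked whether the genotype alters the difference between the drugs. In WT males 7525 genes were called (42.1%; 3659 higher, 20.5%, and 3866 lower, 21.6%), and 4593 were called in the same direction in HT males, 81.5% of the HT calls and 61.0% of the WT calls, with 0 in opposite directions. A test of the difference between HT and WT males called 9 genes (0.0503%; 2 higher, 0.0112%, and 7 lower, 0.0391%; 1861 at an unadjusted p under 0.05). Rpl17, Rpl13a and Rps24, ribosomal protein genes, stood at 0.07, 0.06 and 0.17 in HT males and 0.58, 0.57 and 0.57 in WT males (adjusted p of the difference = 0.0195, 0.0355 and 0.0302). Ndufb9, of complex I, stood at 0.20 in HT males and 0.58 in WT males, and Rwdd1 at 0.20 and 0.46 (0.044 and 0.0302). Gm15500 and Hnrnpll, an RNA-binding protein, stood at 0.10 and -0.01 in HT males and 0.45 and 0.30 in WT males (0.0195 and 0.0195). Dag1, dystroglycan, and Pygm, glycogen phosphorylase, stood at -0.13 and -0.26 in HT males and -0.36 and -0.73 in WT males (0.0195 and 0.0302). In HT males alone Rps24 was called (adjusted p = 0.0276) but not without fluoxetine replicates 3 or 5 or lithium replicates 1, 3 or 5 (adjusted p 0.0578 to 0.0989). With the trend removed Rps24, Rwdd1, Dag1 and Pygm stood at 0.11, 0.02, 0.02 and -0.18 in HT males and none was called.

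These 9 calls rested on single libraries. None were left without HT fluoxetine replicate 1 or without WT lithium replicate 2, and 52 were made without WT lithium replicate 5. The count was 3 without WT fluoxetine replicate 5, 4 without HT fluoxetine replicate 2, and 5 without HT lithium replicate 2 or WT fluoxetine replicate 2 or 3. It was 14 without HT lithium replicate 4, 16 without WT fluoxetine replicate 4, and 21 without HT fluoxetine replicate 5 or WT fluoxetine replicate 1. Of the 40 immediate early genes 3 rose and 10 fell in WT males (median -0.10), against 0 and 20 in HT males (median -0.44). The test of the difference called 0 of them. Nr4a1, Dusp6 and Fos, which fell in HT males, stood at -0.05, 0.14 and -0.14 in WT males. Their differences were not called (adjusted p = 0.337, 0.227 and 0.538).

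In HT females the same contrast called few genes. There were 10 calls (0.0559%; 1 higher, 0.00559%, and 9 lower, 0.0503%; 1831 at an unadjusted p under 0.05), among them Banp, a DNA-binding protein, Per2, and P4ha1, a collagen prolyl hydroxylase, which fell by 0.58, 0.55 and 0.39 (adjusted p = 0.0218, 0.041 and 0.0233). These 3 fell in HT males too, by 0.37 ± 0.11, 0.41 ± 0.12 and 0.34 ± 0.07 (adjusted p = 0.00568, 0.00524 and 0.000296), though with the trend removed Banp (-0.20) and Per2 (-0.26) were not called there. Of the 5636 genes called in HT males, 3071 had a fold of the same sign in HT females, and the rest did not. The median size of the fold of these 5636 genes was 0.05 in HT females and 0.24 in HT males. The 10 calls became 26 without HT lithium female replicate 4 and 0 without replicate 3 or 5, and were 3, 1, 5 and 2 without HT fluoxetine female replicates 1 to 4 and 4 and 3 without HT lithium female replicates 1 and 2. A test of the difference between HT males and HT females called 3173 genes (17.7%), 1499 higher (8.38%) and 1674 lower (9.36%) in males, and 2887 of the 5636 male calls were among them (51.2%). The HT fluoxetine females lay with the lithium libraries on the first principal component (-28.1 to -16.0), and so did the HT lithium females (-28.8 to -18.9). Their mitochondrial share was 7.57 to 10.2% in HT lithium females and 6.91 to 9.03% in HT fluoxetine females. With the GC and length trend removed the difference between HT males and HT females called 246 genes. Whether the label, the batch or the handling of the 5 HT fluoxetine females has a part in these counts was not tested. Within the HT libraries compared here it cannot be told apart from sex. The WT fluoxetine females did not lie with the lithium libraries on the first principal component. They were among the 34 libraries that scored -2.74 to 27.6.

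Dynlt1-ps1, listed at 0 in the 5 HT fluoxetine males, was set aside. Of the other genes Atp5mpl, Ndufa4, Btf3l4, a paralogue of Btf3, Actb and Map1s, a microtubule-associated protein, had the smallest p for that difference. Atp5mpl stood at 0.50 in HT males and -0.01 in HT females, Btf3l4 at 0.35 and -0.02, Actb at -0.32 and 0.02, and Map1s at -0.46 and 0.03 (adjusted p of the difference 2.61e-07 to 5.24e-06). The HT male value of Map1s with the trend removed was -0.07, not called, and that of Btf3l4 0.19. Over lists, 45 of 93 oxidative phosphorylation genes were higher and 0 lower in the male change than in the female one, 11 of 16 basement membrane genes were lower, and 16 of 42 postsynaptic genes were lower and 2 higher. Among immediate early genes 3 of 40 were lower and 1 higher. Arc stood at -1.46 in HT males and -0.68 in HT females, Egr2 at -1.28 and -0.74, and Bhlhe40 at -0.65 and -0.52, none of them called for the difference (adjusted p = 0.296, 0.544 and 0.766). Arc averaged 1934 ± 892 in HT lithium females and 2949 ± 756 in HT fluoxetine females (SD, n = 5 each). Lamb2 averaged 759 ± 83.1 in HT lithium females and 744.9 ± 19.6 in HT fluoxetine females, near the 716 ± 41.0 of HT lithium males.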

How the data were processed

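Poly(A) RNA from the prefrontal cortex of 59 mice in 12 groups was sequenced. Per the submitters' processing notes, GRCm38 was the genome build and the tools were DESeq2 1.19.11, R 3.6.0 and Salmon 0.11.2; no roles are given. The deposited signal values are gene counts that the authors divided by 1 size factor per library: dividing by each library's smallest step gave whole reads for 100% of values (within 0.01 read), 25.0 to 32.9 M per library. For these normalised values limma 3.58.1 (R 4.3.3) was the main test, on log2(value + 1), with 12 group means over 59 libraries and an intensity trend, two-sided, with Benjamini-Hochberg adjustment over 17891 genes and a threshold of 0.05. Genes needed a value of 10 in 4 libraries. DESeq2 1.42.0 and edgeR 4.0.16 on these reads, other filters, pseudocounts, scalings, GC and length corrections (natural spline with 5 degrees of freedom), the replicate block and leaving out each library were alternatives. GC content, exon length and coordinates came from GENCODE M21, which held 18077 of 18088 genes. The scripts were tested on simulated counts that held no GC, length or batch trend, so that test does not cover the trend in these libraries.

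Genes were named by a rule: Naa15, the 12 largest increases and decreases among genes at or above the median level whose groups did not overlap, up to 4 members of each list with the smallest p, the 6 smallest p of each test of a difference, and list members with a known role. Jun, Fosb, Fosl2, Slco1a4, Ly6c1, Ly6a, Itm2a, Gabbr1, Gabbr2 and Grm3 were named after their values were seen. The members and the 49 gene lists were chosen with earlier results of these data known. Figures were drawn with matplotlib 3.10.9, and permutation tests used scipy 1.17.1.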

Additional observations from a re-analysis of the deposited data

Results flagged for a closer look

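Single libraries lay far from the other 4 of their group in 15 of 310 groups of values tested, by a gap above 0.710 of the group's range (Dixon's 95% critical value for 5 libraries); chance alone flags about 1 in 20 groups. In HT lithium males, replicate 5 was high for Fos (856 normalised counts), Ier2 (191), Npas4 (1135) and Rpl22 (2402). Replicate 1 was low for Ptges3-ps (23.4) and Rpl37rt (479.9), and replicate 2 was high for Gm49450 (320.2). In HT fluoxetine males, replicate 1 was high for Naa15 (1855), Gm28438 (15237) and Ptges3-ps (38.5). Replicate 2 was low for Ly6a (274), and high for Htr1b (458) and for the sum of striatum markers (34673), and replicate 3 for Dusp6 (3257) and Egr2 (391).

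The lithium over fluoxetine change differed between HT males and WT males in 9 genes, by limma's test of the difference. The difference, HT males minus WT males on the log2 scale, was -0.51 for Rpl17, -0.51 for Rpl13a, -0.41 for Rps24, -0.39 for Ndufb9, -0.35 for Gm15500, -0.31 for Hnrnpll and -0.26 for Rwdd1. It was 0.47 for Pygm and 0.22 for Dag1.

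The change differed between HT males and HT females in 3173 genes, and the values below are HT males minus HT females for the genes named in the text (limma, adjusted p 2.61e-07 to 0.0404). More positive in males were Atp5mpl (0.51), Btf3l4 (0.37), Gm15387 (0.94), Gm15500 (0.20), Gm28438 (0.83), Gm4724 (1.297), H3f3a (0.36), Impa1 (0.18) and Myl12b (0.25). Also more positive were Ndufa4 (0.47), Pvalb (0.59), Rpl10 (0.68), Rpl22 (0.27), Rpl22l1 (0.65), Rpl37rt (0.74), Rps27rt (0.62), Rwdd1 (0.23), Tmem256 (0.59) and mt-Atp6 (1.47). More negative in males were Acta2 (-0.78), Actb (-0.34), Adra2c (-0.60), Apc2 (-0.34), Apoe (-0.51), Bgn (-0.65), C1qtnf4 (-0.66), Cacng8 (-0.48), Cdh5 (-0.60), Clu (-0.37), Col4a2 (-0.47) and Cry2 (-0.23). Also more negative were Csf1r (-0.42), Dag1 (-0.17), Egr4 (-0.60), Fasn (-0.39), Gabbr1 (-0.12), Gm21887 (-2.18), Grin1 (-0.28), Grin2d (-0.54), Gsk3a (-0.18), H1fx (-0.90), Hcn2 (-0.46) and Hspg2 (-0.67). Lower as well were Isyna1 (-0.45), Jund (-0.62), Kcnk12 (-0.63), Kif5c (-0.18), Lamb2 (-0.56), Lamc1 (-0.34), Lrrc4b (-0.44), Map1s (-0.50), Mvd (-0.38), Myl12b (-0.71), Nes (-0.80) and Nkd1 (-0.41). Further negative differences were those of Nlgn3 (-0.22), Notch3 (-0.61), Nr1d1 (-0.34), Nrxn2 (-0.42), Pltp (-0.55), Prr7 (-0.72), Pygm (-0.32), Rims1 (-0.25), Scap (-0.32), Shank3 (-0.40), Srebf2 (-0.27) and Syn1 (-0.30). The last were Tcf7l1 (-0.97), Tmem158 (-0.58), Vgf (-0.50), Vstm2l (-0.71), Vwf (-0.62) and Zfp771 (-0.79). The differences of 5 further genes, Dynlt1-ps1, Gdf1, Gm49450, Gm9762 and Ptges3-ps, are not given, since each is listed at 0 in most libraries of at least 1 of the groups compared and the size then depends on the pseudocount. HT fluoxetine females lay with the lithium libraries on the first principal component, in mitochondrial share and in GC slope, and the part of this in these differences was not tested.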

How the results depend on the processing

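With each library's GC and length slopes as covariates, after removal of the GC and length trend, and after its removal in a fit with the replicate block, genes called numbered 1104, 1809 and 1844 between the drugs in HT males (5636 as reported). In the same order they were 42, 17 and 15 for HT against WT males, 545, 246 and 262 for HT males against HT females, 2874, 4242 and 4275 in WT males, 64, 39 and 35 in HT females, and 2069, 2956 and 2948 for lithium against vehicle. Fluoxetine against vehicle gave 123 with the slopes. The difference between HT and WT males was called for 72 genes by DESeq2, 22 by edgeR, 24 with a mean of at least 100, 3 with only the groups compared and 2 after quantile normalisation. HT females gave 47 by DESeq2, 6 without the intensity trend and 0 with only the groups compared, and fluoxetine against vehicle 57 by DESeq2 and 0 with only the groups compared. The cause of these shifts was not tested. In HT males edgeR called 5594 genes, DESeq2 5694 and a fit of the 10 libraries alone 4800.

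Leaving out each library gave 4659 to 5714 calls in HT males, 0 to 52 for HT against WT males, 2539 to 3559 for HT males against HT females, 7031 to 7280 in WT males, 0 to 26 in HT females, 6125 to 6928 for lithium and 0 to 30 for fluoxetine against vehicle.

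The replicate block gave 5621 calls in HT males and changed no call of a named gene. Equal replicate numbers did not pair the libraries: the correlations of their deviations were -0.0656 to 0.0936, and a library's own number was its best partner in 0 of 5.

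With each library's slopes as covariates, 49 results of named genes were unchanged in sign and call, 78 lost their call and 25 changed sign. With the trend removed these numbers were 94, 46 and 12. Calls lost with the slopes included Arc, Bhlhe40, Adra2c, Cacng8, Clu and Btf3l4 (adjusted p = 0.176, 0.555, 0.437, 0.437, 0.0924 and 0.0818). Acta2, Apoe, Atp5mpl, Bgn, C1qtnf4 and Cdh5 kept theirs. Signs turned in some named genes. With the slopes as covariates the folds were 0.027 for Apc2, 0.20 for Fasn, 0.096 for Fosb, 0.42 for Fosl2, 0.057 for Gabbr2, -0.012 for Gm15500, -0.13 for Gm28438, 0.050 for Grin1, 0.17 for Gsk3b, 0.014 for Hsp90ab1, 0.15 for Hspa1a, 0.15 for Htr6, -0.20 for Itm2a, 0.076 for Jun, 0.011 for Kif5c, -0.15 for Naa15, -0.46 for Npas4, 0.0075 for Per2, -0.25 for Rpl13a, -0.26 for Rpl17, -0.085 for Rps24, -0.13 for Slco1a4, 0.23 for Sst, -0.26 for Vip and -0.38 for mt-Nd1. After removal of the trend, alone or with the replicate block, they were 0.023 for Apc2, 0.016 for Dag1, 0.014 for Gabbr1, -0.18 for Gm15500, 0.021 for Gsk3a, -0.057 for Insig1, -0.095 for Itm2a, -0.018 for Maoa, -0.034 for Naa15, -0.14 for Rpl17, 0.084 for Shank3 and -0.015 for mt-Nd1. Quantile normalisation gave 0.061 for Gsk3b, 0.033 for Hnrnpll and 0.012 for Kif5c. Leaving out a library gave -0.042 to 0.037 for Gsk3b, -0.028 to 0.017 for Hnrnpll and -0.12 to 0.30 for Npas4.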
